A study of Mus musculus with 6 samples.

Results

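The collagen genes are the genes of the deposited tables whose name is Col, a type number, the letter a and a chain number. They were taken by this rule on the name, which was set with earlier results of these data known. The rule found 39 of the 48733 named genes. The mice were CC016/GeniUnc, one of the inbred lines bred in the Collaborative Cross, and 3 libraries are labelled as cortical bone of the femur without its marrow and 3 as osteoblasts. Per the methods the osteoblasts were grown from bone marrow stromal cells, the adherent cells of the marrow, with dexamethasone, beta-glycerophosphate and ascorbic acid added, which drives them to lay down and mineralize matrix. All mice carry the same strain background and the labels name no edited allele or other treatment, while age and sex are not given in the sources used here. The study's methods give 3 mice, from whose femora both the bone and the marrow were taken, while the labels give each library a code of its own, so whether a bone and a culture of 1 replicate number share a mouse is not stated. Where 3 values follow each other for a label, they are those of replicates 1, 2 and 3. Values are FPKM, fragments per kilobase of transcript scaled to the aligned fragments of the library, which allow levels of different genes to be set side by side because they are per length.

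Collagens are mostly secreted proteins in which 3 chains wind into a triple helix, and the type number names the assembled molecule while the chain number names its subunit. Type I, the main protein of bone matrix, is built from the chains of *Col1a1* and *Col1a2*, and vitamin C in the medium is needed by the enzymes that hydroxylate its prolines. Types III and V join type I in fibrils, type IV forms the sheets of basement membranes, types IX, X and XI belong to cartilage, type VI makes beaded filaments, and the FACITs (fibril-associated collagens with interrupted triple helices) sit on the surface of fibrils. The members were grouped as 8 fibrillar, 8 basement membrane, 4 FACIT, 5 cartilage and 14 other genes. Types IX and XI are a FACIT and a fibrillar collagen by structure and were counted here only as cartilage. The cartilage class does not hold *Col2a1* and *Col11a2*, whose features carry no name in the deposited tables.

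Libraries of the same label differed widely in blood genes, so each library is described by its label and by its level of the hemoglobin gene *Hbb-bt*. *Hbb-bt* was above 1000 FPKM in bone replicate 3 and in osteoblasts replicates 2 and 3, where it lay between 34268 and 48650 FPKM. It was at most 7.05 FPKM in the remaining libraries, which were osteoblasts replicate 1 and bone replicates 1 and 2. The same 3 libraries with much *Hbb-bt* had 14246 to 17226 FPKM summed over 7 neutrophil markers, against at most 5.51 FPKM in the others. Hemoglobin and neutrophil RNA was thus high in a library labelled as bone without marrow and in 2 labelled as cultured osteoblasts. Every library kept its deposited label, and the 2 sets of 3 libraries are not groups of the study, so no mean or test was computed over them. Osteoblast markers were present in all 6 libraries, with *Sp7*, a transcription factor of osteoblasts, at 12.5 to 38.7 FPKM. Single markers ran in opposite directions between the 2 sets: the matrix gene *Ibsp* was at 986 to 1278 FPKM where *Hbb-bt* was low and at 43.1 to 91.3 FPKM where it was high, and the osteocalcin gene *Bglap2* was at 264 to 513 FPKM against 1641 to 1959 FPKM. Of the osteocyte markers, *Dmp1* was at 50.04 to 127 FPKM where *Hbb-bt* was low and at 22.5 to 24.2 FPKM where it was high, while *Sost* was at most 0.198 FPKM against 15.8 to 22.7 FPKM. The aligned depth implied by the ratio of coverage to FPKM was 2.03 to 3.39 Gb per library. At that depth a 1 kb transcript with 3 read pairs would measure 0.133 to 0.221 FPKM, a floor that covers counting error only. In bulk RNA, fewer cells of a type and less RNA per cell cannot be told apart.

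Collagen RNA was abundant in every library. The members summed to 10235, 5644 and 5750.0 FPKM in the bone libraries, against 8202, 4431 and 4542 FPKM in the osteoblast libraries. This was 1.72, 1.59 and 0.657% of the FPKM on named genes in the bone libraries and 2.10, 0.515 and 0.551% in the osteoblast libraries. The 3 libraries with more than 1000 FPKM of *Hbb-bt* had the 3 lowest shares. Of the 39 members, 28 had a mean of at least 1 FPKM over the 6 libraries and entered the tests, 30 reached 1 FPKM in at least 1 library, and 9 stayed below 1 FPKM in every library.

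**Figure D1:**
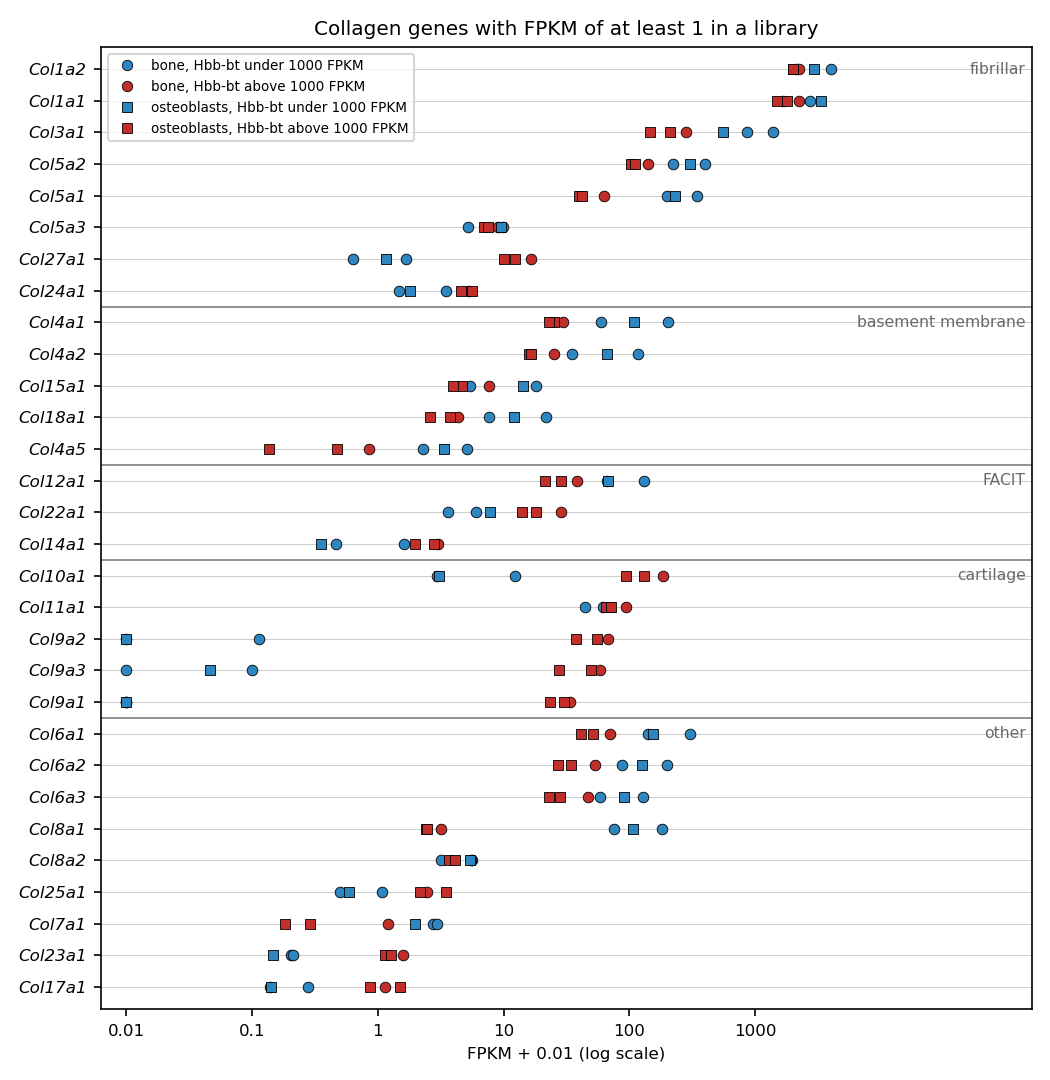
FPKM of the 30 collagen genes that reached 1 FPKM in at least 1 library, on a log axis after adding 0.01, by class. Each point is a library, circles are bone and squares osteoblasts, and red marks more than 1000 FPKM of *Hbb-bt*; the red points of *Col9a1*, *Col9a2*, *Col9a3* and *Col10a1* lie to the right of the blue points and those of *Col8a1* and *Col5a1* to the left.

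*Col1a1* and *Col1a2*, the type I chains, were the most abundant members in each of the 6 libraries. In GRCm38 the feature of *Col1a1* spans chr11:94936224-94953042 on the plus strand and that of *Col1a2* chr6:4504814-4541544, also plus. *Col1a1* measured 2711, 1662 and 2234 FPKM in the bone libraries and 3332, 1499 and 1776 FPKM in the osteoblast libraries. *Col1a2* measured 3981, 2106 and 2236 FPKM in the bone libraries and 2929.8, 2001 and 2002 FPKM in the osteoblast libraries, in the same order. The labels overlapped for both genes, and the highest FPKM was only 2.22 times the lowest for *Col1a1* and 1.99 times for *Col1a2*. In FPKM neither gene was split by *Hbb-bt*, but this depended on the scale. After scaling to named genes or to the 75th percentile, both had their 3 highest values in the libraries with little *Hbb-bt*. Of all genes, 48.6 and 32.1% had that order under these scales. Together they made up 65.4 to 83.2% of the summed collagen FPKM. Among all named genes *Col1a1* ranked between 14 and 45 and *Col1a2* between 12 and 37.

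*Col3a1*, the chain of type III collagen of stretchable tissue, varied far more than type I. Its FPKM was 1394, 852 and 284 in the bone libraries and 555, 211 and 145 in the osteoblast libraries. The values under the labels overlapped, but its 3 highest values were in the libraries with little *Hbb-bt*, the lowest of them 1.96 times the highest of the other 3. *Col5a1* and *Col5a2*, chains of the type V collagen that starts fibrils, had the same split. *Col5a1* was at 345, 198 and 62.4 FPKM in the bone libraries and at 229, 39.3 and 42.0 FPKM in the osteoblast libraries. *Col5a2* was at 395, 223 and 141 FPKM in the bone libraries and at 302, 103 and 110.1 FPKM in the osteoblast libraries.

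The remaining fibrillar genes were low. *Col5a3*, the third type V chain, measured 9.79, 5.22 and 8.99 FPKM in the bone libraries and 9.57, 6.93 and 7.46 FPKM in the osteoblast libraries, so its lowest and its highest value both lay under the bone label. *Col27a1*, a fibrillar collagen known from cartilage, measured 1.66, 0.619 and 16.3 FPKM in the bone libraries and 1.16, 12.3 and 10.1 FPKM in the osteoblast libraries. Unlike *Col3a1*, it had its 3 highest values where *Hbb-bt* was high. *Col24a1*, a fibrillar collagen of forming bone, measured 3.48, 1.46 and 5.28 FPKM in the bone libraries and 1.78, 5.58 and 4.56 FPKM in the osteoblast libraries.

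Of the cartilage collagens, the 3 type IX chains separated the libraries most sharply among all members. *Col9a1*, a chain of the type IX collagen on cartilage fibrils, was listed at 0 in osteoblasts replicate 1 and bone replicates 1 and 2, while bone replicate 3 had 33.5 FPKM and osteoblasts replicates 2 and 3 had 30.1 and 23.2 FPKM. *Col9a2* measured 0.104, 0 and 67.3 FPKM in the bone libraries and 0, 55.6 and 37.5 FPKM in the osteoblast libraries. *Col9a3* measured 0.0894, 0 and 57.9 FPKM in the bone libraries and 0.0361, 49.7 and 27.4 FPKM in the osteoblast libraries. The 3 type IX chains thus stayed under the floor of a 1 kb transcript in 1 set of libraries and were well expressed in the other, across both labels. *Col10a1*, made by hypertrophic chondrocytes of the growth plate, measured 12.2, 2.96 and 186 FPKM in the bone libraries and 3.05, 131 and 93.9 FPKM in the osteoblast libraries, a gap of 7.68 times between its 3 low and its 3 high values. The feature of *Col9a3* overlaps the RefSeq gene *Tcfl5* and that of *Col10a1* lies over *Nt5dc1*, and without strand, reads of overlapping genes cannot be told apart.

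*Col11a1*, a chain of the type XI collagen of cartilage fibrils, did not follow the other cartilage genes. It was at 62.0, 44.1 and 93.7 FPKM in the bone libraries and at 70.5, 65.0 and 70.9 FPKM in the osteoblast libraries. Its highest value was 2.12 times its lowest, and the labels overlapped. Markers of chondrocytes moved with types IX and X. The 7 matched markers summed to 9.31 to 28.7 FPKM in the libraries with little *Hbb-bt* and to 183 to 309 FPKM in the other 3. Of the 7, 7 had their 3 highest values in the latter, as had 38.4% of all genes. The order was not particular to chondrocytes: all matched markers of neutrophils (7), endothelium (5), erythroid cells (4) and skeletal muscle (3) had it too. *Acan*, the main cartilage proteoglycan, was at most 0.457 FPKM in the first set and at least 44.7 FPKM in the second, while *Matn1* and *Cnmd* were listed at 0 in each library of the first. The part of these markers in the collagen levels was not tested.

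**Figure D2:**
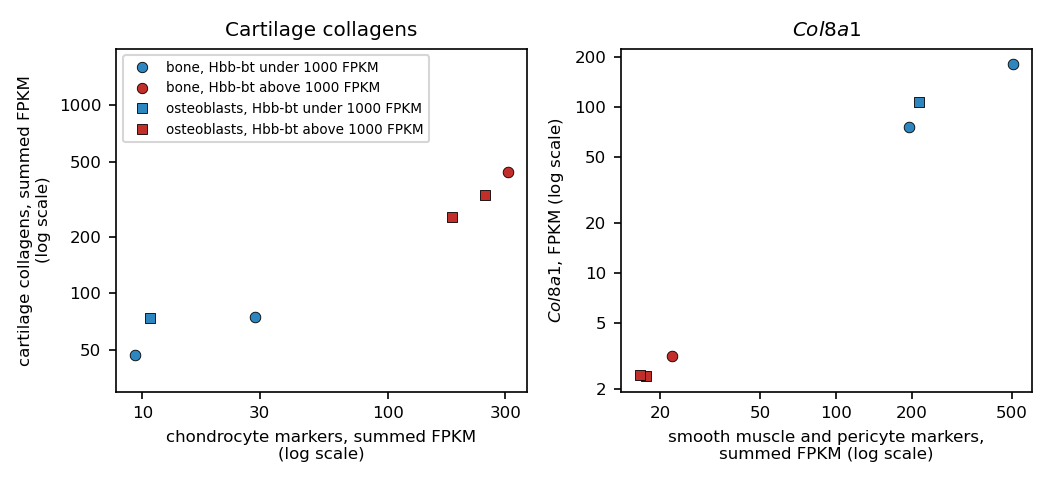
Left, summed FPKM of the 5 cartilage collagens against that of 7 chondrocyte markers; right, FPKM of *Col8a1* against the summed FPKM of 4 smooth muscle and pericyte markers, all axes on a log scale. Each point is a library, with the symbols explained in the picture. The 3 libraries with much *Hbb-bt* have 253 to 439 FPKM of cartilage collagen and the other 3 have 47.1 to 74.4 FPKM. This sum leaves out *Col2a1* and *Col11a2*, whose features carry no name.

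Upstream sequence is shown for 5 members chosen by name from both sides of this split, not by the width of their gap. Their start in the files equals the RefSeq start. Each line gives the 120 bases before the start in GRCm38.p6, the build of the files, read 5′ to 3′ on the strand of the gene. Capitals mark the letters of CCAAT (a box of many promoters), TATAAA (the TATA box), ACAAT (core letters of SOX factors, which direct cartilage genes) and GGGCGG (a GC box), searched on both strands. *Col3a1* lies at chr1:45311418-45311537 on the plus strand, *Col5a1* at chr2:27886305-27886424 (plus), *Col8a1* at chr16:57754738-57754857 (minus), *Col9a1* at chr1:24177490-24177609 (plus) and *Col10a1* at chr10:34389861-34389980 (plus).
Col3a1: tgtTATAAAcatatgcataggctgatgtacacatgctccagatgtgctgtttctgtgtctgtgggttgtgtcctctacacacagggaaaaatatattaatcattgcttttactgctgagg
Col5a1: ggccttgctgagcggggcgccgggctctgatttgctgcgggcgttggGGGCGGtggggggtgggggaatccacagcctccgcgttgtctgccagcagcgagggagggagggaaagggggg
Col8a1: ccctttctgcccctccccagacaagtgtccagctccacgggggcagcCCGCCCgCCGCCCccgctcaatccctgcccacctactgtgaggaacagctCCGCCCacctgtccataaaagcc
Col9a1: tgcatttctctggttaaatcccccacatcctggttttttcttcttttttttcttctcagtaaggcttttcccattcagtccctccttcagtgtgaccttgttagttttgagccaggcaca
Col10a1: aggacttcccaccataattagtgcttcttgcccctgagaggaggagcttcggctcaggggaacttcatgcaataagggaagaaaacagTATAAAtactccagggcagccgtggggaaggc
The capitals show 3 GC boxes before *Col8a1* and 1 before *Col5a1*, and TATAAA 32 bases before the start of *Col10a1* and 117 bases before that of *Col3a1*. None of the 4 motifs occurs in the stretch shown for *Col9a1*. Over 250 bases before the start, GGGCGG or its reverse was found in 19 of the 31 members with an entry, against 32.7% of the 32851 promoters of the table. CCAAT was found in 12 members (33.8% of all promoters), TATAAA in 3 (12.4%) and ACAAT in 2 (27.7%). A member counted if any of its entries had the motif, while the percentages are per entry, so the 2 are not fully alike. Of the 31 members, 18 have an entry whose start equals that in the files. A match is a run of letters and not a shown binding site.

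The genes of basement membrane collagen were led by *Col4a1* and *Col4a2*, whose chains form the type IV network of most basement membranes. *Col4a1* was at 203, 59.9 and 29.4 FPKM in the bone libraries and at 109, 25.2 and 22.9 FPKM in the osteoblast libraries. *Col4a2* was at 116, 35.0 and 25.2 FPKM in the bone libraries and at 66.2, 15.9 and 16.4 FPKM in the osteoblast libraries. Both had their 3 highest values in the libraries with little *Hbb-bt*. In the files they lie head to head on chromosome 8, *Col4a1* on the minus strand ending at 11312826 and *Col4a2* on the plus strand starting at 11312805, so that the features share 22 bp. *Col18a1*, the source of endostatin, was at 21.9, 7.65 and 4.30 FPKM in the bone libraries and at 12.0, 3.73 and 2.57 FPKM in the osteoblast libraries. *Col15a1*, its relative at basement membranes, was at 17.9, 5.42 and 7.68 FPKM in the bone libraries. In the osteoblast libraries it was at 14.2, 4.67 and 3.97 FPKM. It had no such split in FPKM, but had it after scaling to named genes or to the 75th percentile. *Col4a5*, a chain of kidney and other basement membranes, had its highest value of 5.06 FPKM in bone replicate 1 and its lowest of 0.126 FPKM in osteoblasts replicate 2, while *Col4a3*, *Col4a4* and *Col4a6* stayed at or below 0.184 FPKM.

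Endothelial cells rest on type IV collagen, but their markers ran the other way. The 5 markers, *Pecam1* and *Cdh5* among them, summed to 33.5 to 47.1 FPKM in the libraries with much *Hbb-bt*, where *Col4a1* and *Col4a2* were low, and to 0.273 to 5.04 FPKM in the other 3. Each of the 5 had its 3 highest values in the libraries with much *Hbb-bt*, as had 38.4% of all genes. Markers of smooth muscle and pericytes went with *Col4a1* and *Col4a2*, and with the vessel wall collagen *Col8a1*. The 4 matched genes summed to 195 to 507 FPKM where *Hbb-bt* was low and to 16.6 to 22.4 FPKM where it was high. Of the 4, 3 (all but *Rgs5*) had their 3 highest values in the former, as had 16.9% of all genes. *Acta2*, the actin of smooth muscle and myofibroblasts, was the most abundant of them, at 136 to 351 FPKM against 6.79 to 11.8 FPKM. The order was not particular to this list. All 3 macrophage markers had it too, with sums of 392 to 752 FPKM against 118 to 138 FPKM. The part of these cells in the collagen levels was not tested.

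Among the FACITs, *Col12a1*, a collagen of dense connective tissue and of the surface of bone, was the most abundant. It was at 130.5, 66.4 and 37.9 FPKM in the bone libraries and at 67.5, 28.5 and 21.3 FPKM in the osteoblast libraries. *Col22a1*, a collagen of tissue junctions such as that of muscle and tendon, ran the other way, with 6.01, 3.62 and 28.3 FPKM in the bone libraries and 7.82, 13.9 and 18.1 FPKM in the osteoblast libraries. Bone replicate 3, which had the most *Col22a1*, also had the most RNA of 3 matched skeletal muscle markers, 943 FPKM, against 221 and 461 FPKM in osteoblasts replicates 2 and 3 and at most 1.09 FPKM in the others. The part of muscle in the level of *Col22a1* was not tested. *Col14a1*, which binds fibrils in skin and tendon, was at 1.61, 0.458 and 3.00 FPKM in the bone libraries and at 0.343, 1.98 and 2.76 FPKM in the osteoblast libraries. *Col19a1* stayed at or below 0.0975 FPKM.

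Of the other types, the type VI genes *Col6a1*, *Col6a2* and *Col6a3* were expressed in every library. *Col6a1* was at 300.3, 139.8 and 70.2 FPKM in the bone libraries and at 155, 50.9 and 41.2 FPKM in the osteoblast libraries. *Col6a2* was at 197, 87.2 and 53.4 FPKM in the bone libraries and at 125, 34.2 and 27.2 FPKM in the osteoblast libraries. *Col6a3* was at 128, 58.1 and 46.4 FPKM in the bone libraries and at 90.9, 28.1 and 22.9 FPKM in the osteoblast libraries. The 3 genes kept the order *Col6a1*, *Col6a2*, *Col6a3* in every library, and each had its 3 highest values where *Hbb-bt* was low. *Col6a4*, *Col6a5* and *Col6a6*, which code for alternative type VI chains, were at most 0.281 FPKM.

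*Col8a1*, a short-chain collagen of blood vessel walls and of the cornea, had the widest gap among members that were highest where *Hbb-bt* was low. It measured 181, 75.2 and 3.16 FPKM in the bone libraries and 107, 2.38 and 2.43 FPKM in the osteoblast libraries. The lowest of the 3 high values was 23.8 times the highest of the 3 low values, and both labels held high and low libraries. *Col8a2*, its partner chain, did not share the gap and lay between 3.16 and 5.62 FPKM. *Col7a1*, which forms the anchoring fibrils of skin, was at 2.75, 2.94 and 1.19 FPKM in the bone libraries and at 1.96, 0.280 and 0.172 FPKM in the osteoblast libraries. *Col25a1*, a transmembrane collagen, was at 0.489 to 3.49 FPKM, and the transmembrane collagens *Col17a1* and *Col23a1* reached 1.49 and 1.56 FPKM. *Col26a1* and *Col28a1* stayed at or below 0.217 and 0.708 FPKM.

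The order of the 6 values was then counted over the members. Of the 28 members tested, 13 had their 3 highest values in the libraries with less than 1000 FPKM of *Hbb-bt*, against 16.9% of all 12112 genes with a mean of at least 1 FPKM. These were 3 fibrillar, 4 basement membrane, 1 FACIT and 5 other genes. In 9 members the 3 highest values were in the libraries with more than 1000 FPKM of *Hbb-bt*, against 38.4% of all genes, and these were 4 cartilage, 2 fibrillar, 2 FACIT and 1 other gene. The filter on the mean lets a gene pass through the libraries where it is high, so the counts describe these 28 genes. Over all 39 members, those near 0 included, the split was 14 highest where *Hbb-bt* was low and 17 highest where it was high. The same shares over all genes without the filter were not computed. Some of the added members lie near or under the floor of a 1 kb transcript. After scaling to the sum over named genes, 18 and 6 members had these orders, against 48.6 and 21.4% of all genes, so that the background for the first order moved more than the count. Unnamed features took 71.5 and 65.0% of the FPKM in bone replicate 2 and osteoblasts replicate 1 and 27.4 to 30.7% in the other 4 libraries, which this scaling leaves out. The first order held under the deposited FPKM and 3 other scales for 13 members, and the second for 6, *Col9a1*, *Col9a2*, *Col9a3*, *Col10a1*, *Col25a1* and *Col27a1*. The share of all genes that kept an order under every scale was not computed, so these 2 counts have no background.

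Ratios within a library do not depend on its scaling. The ratio of *Col1a1* to *Col1a2* was 0.681, 0.789 and 0.999 in the bone libraries and 1.14, 0.749 and 0.887 in the osteoblast libraries, although a type I molecule holds more chains of the first than of the second. The ratio of *Col4a1* to *Col4a2* stayed between 1.16 and 1.74 and that of *Col6a1* to *Col6a2* between 1.24 and 1.603. The proportions of these type IV and type VI chains varied by at most 1.498 times while their levels varied several times over, whereas the type I ratio varied 1.67 times, close to the 2.22 and 1.99 times of its levels. *Col5a1* to *Col5a2* was less even, with 0.872, 0.890 and 0.442 in the bone libraries and 0.760, 0.381 and 0.382 in the osteoblast libraries.

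The proportions between types varied more. The ratio of *Col3a1* to *Col1a1* was 0.514, 0.513 and 0.127 in the bone libraries and 0.167, 0.141 and 0.0818 in the osteoblast libraries. The ratio of *Col11a1* to *Col5a1*, chains that belong to related fibrils, was 0.180, 0.223 and 1.502 in the bone libraries and 0.307, 1.65 and 1.69 in the osteoblast libraries. *Col5a1* thus exceeded *Col11a1* in the libraries with little *Hbb-bt* and fell short of it in the other 3. For 8 ratios the labels were compared by exact permutation tests on the log2 ratio (two-sided). The smallest p was 0.2, for *Col11a1* to *Col5a1* and for *Col5a1* to *Col5a2*, and each adjusted p over the 8 was at least 0.6, while 3 libraries against 3 cannot go below 0.1.

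**Figure D3:**
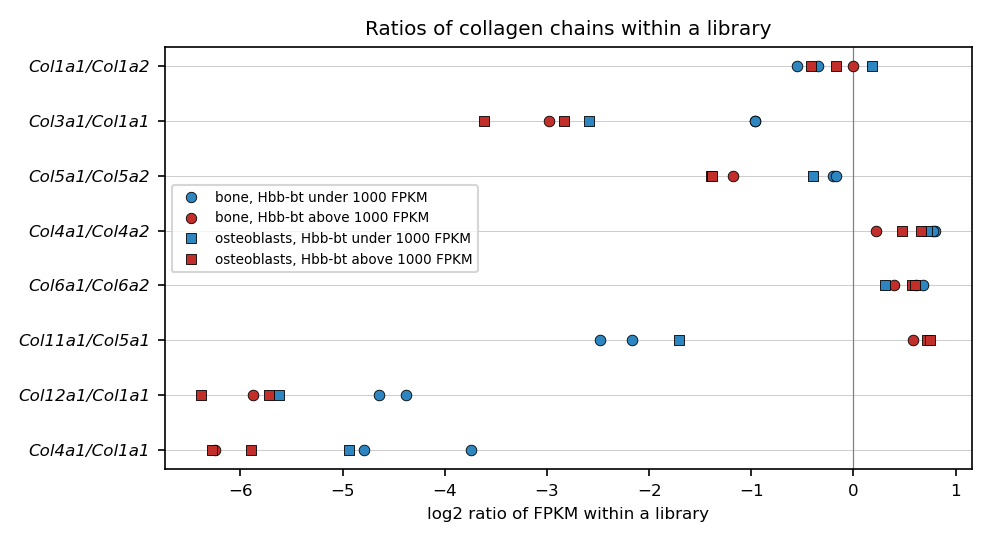
The log2 ratio of FPKM of 8 pairs of collagen genes within each library, circles for bone and squares for osteoblasts, red for more than 1000 FPKM of *Hbb-bt*. The ratio of *Col11a1* to *Col5a1* is below 0 in 3 libraries and above 0 in the other 3, while *Col4a1* to *Col4a2* and *Col6a1* to *Col6a2* stay above 0 in each library.

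The design implies a comparison of osteoblasts with bone, that is, of cultured cells with the tissue they build. The summed FPKM of all members averaged 7209.6 ± 2620.3 (SD, n = 3) under the bone label and 5725 ± 2145 (SD, n = 3) under the osteoblast label, a difference (osteoblasts minus bone) of -0.34 on the log2 scale (exact permutation test, two-sided, p = 0.5). The fibrillar class differed by -0.31 (exact permutation p = 0.5) and the basement membrane class by -0.84 (exact permutation p = 0.5). The FACITs differed by -0.75 (exact permutation p = 0.3), the other types by -1.05 (exact permutation p = 0.3) and the cartilage class by 0.67 (exact permutation p = 0.8). The cartilage sum leaves out *Col2a1* and *Col11a2*, whose unnamed features measured up to 510 and 271 FPKM. Adjusted over the 5 classes, each p was at least 0.625. When libraries were left out in turn, the difference ran from -0.63 to -0.0545 for all members, -0.60 to -0.0371 for the fibrillar class, -1.53 to -0.15 for the basement membrane class, -1.02 to -0.42 for the FACITs, -1.75 to -0.50 for the other types and 0.0218 to 1.63 for the cartilage class. The differences were of the size of the spread within a label, where the SD of the log2 sums ran from 0.47 to 1.701.

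**Figure D4:**
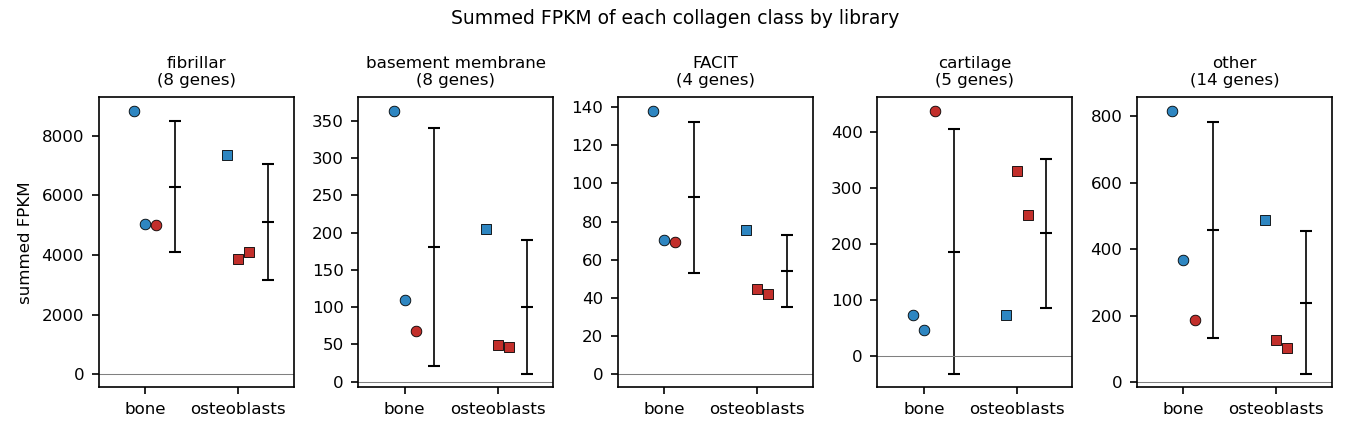
Summed FPKM of each collagen class, with each library as a point under its label (blue and red for less and more than 1000 FPKM of *Hbb-bt*) and the mean ± SD of the 3 libraries of a label beside it. In the cartilage class bone replicate 3 and osteoblasts replicates 2 and 3 lie between 253 and 439 FPKM, and the other 3 libraries at or below 74.4 FPKM. That class leaves out *Col2a1* and *Col11a2*, whose features carry no name.

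Gene by gene, limma on log2(FPKM + 1) called 0 members higher and 0 lower in osteoblasts at an adjusted p under 0.05, and 0% of the 12112 genes were called in either direction. At an unadjusted p under 0.05 there were 0 members, against 0.14% of all genes. The median log2 fold change was -0.33 over the 28 members and 0.12 over all genes, and 18 members were below 0 against 37.4% of all genes. No tested member had all its values under 1 label above all those under the other, which 0.479% of the genes had with osteoblasts above and 0.438% with bone above. The log2 fold change of *Col8a1* was -1.84 (standard error 1.62), that of *Col9a2* 1.62 (standard error 1.86) and that of *Col3a1* -1.43 (standard error 0.80). Type I was close to even, at -0.06 (standard error 0.68) for *Col1a1* and -0.23 (standard error 0.67) for *Col1a2*. The sizes at low levels depend on the value added before the logarithm: with 0.01 in place of 1 the log2 fold change was 3.68 for *Col9a1*, 3.36 for *Col9a3*, 2.69 for *Col9a2*, -2.18 for *Col7a1* and -2.04 for *Col8a1*, still with no member called. The median SD within a label was 0.99 on the log2 scale over the members and 0.59 over all genes.

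**Figure D5:**
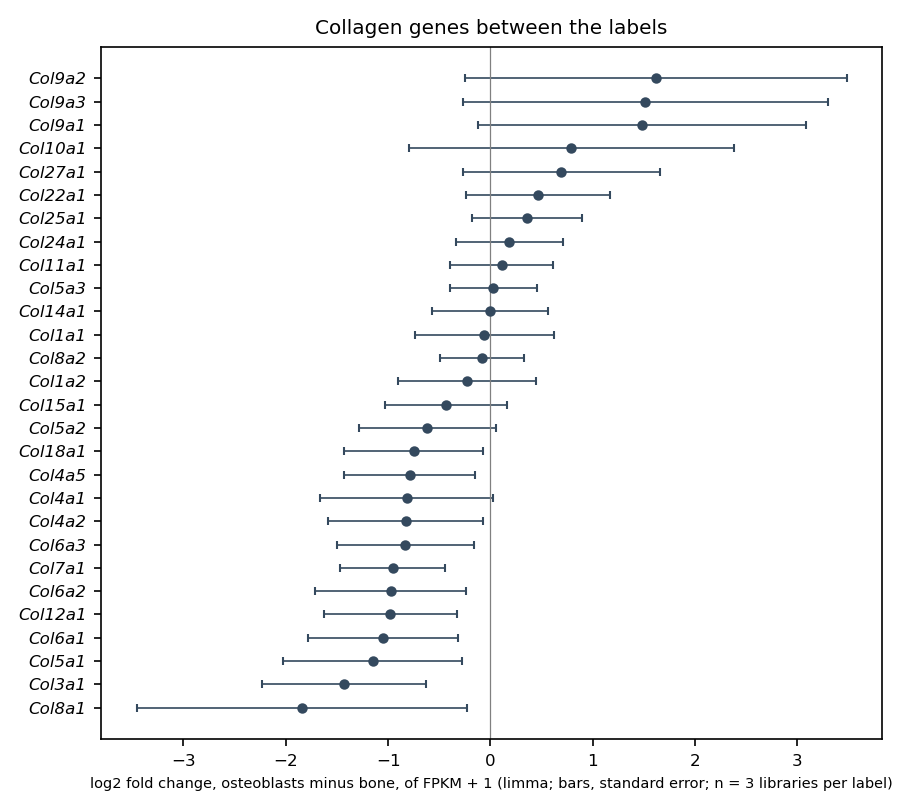
The log2 fold change of FPKM + 1 from bone to osteoblasts in limma for the 28 members tested, with the standard error as bars and 3 libraries per label. With 1 added to the FPKM, *Col8a1* at -1.84 and *Col9a2* at 1.62 are the extremes, and the bars of *Col1a1* and *Col1a2* cross 0.

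The calls depended on single libraries. Osteoblasts replicate 1 was the only osteoblast library with little *Hbb-bt*, and bone replicate 3 the only bone library with much. Leaving out either brings the labels closer to the *Hbb-bt* split, so label and split largely cannot be told apart in these fits. Without osteoblasts replicate 1, limma called *Col9a1*, *Col9a2* and *Col9a3* higher in osteoblasts, with log2 fold changes of 3.08, 3.47 and 3.25 (limma adjusted p = 0.0315, 0.0288 and 0.0343), and *Col8a1* lower by a log2 change of -3.50 (limma adjusted p = 0.0151). That fit called 2.16% of all genes higher and 0.314% lower. Without bone replicate 3 the log2 fold changes were as large, at 3.19, 3.63 and 3.45 for *Col9a1*, *Col9a2* and *Col9a3* and -3.45 for *Col8a1*, and narrowly missed the threshold (limma adjusted p = 0.064, 0.0583, 0.061 and 0.0676). Leaving out any of the other 4 libraries also gave 0 calls among the members.

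The labels were also read separately on each side of the *Hbb-bt* threshold, a choice made after the values had been seen. Osteoblasts were below bone on both sides for 3 of the 28 members (3.8% of all genes) and above on both sides for 0 (2.2%). These shares depended on the scale. With TPM, scaling to named genes and scaling to the 75th percentile, 3, 4 and 5 members were below on both sides. The shares of all genes were then 2.04, 3.71 and 10.2%. For the opposite order they were 0.991, 15.9 and 8.83%, with 0 members each time. In FPKM the 3 were *Col3a1*, *Col7a1* and *Col14a1*. For *Col14a1* the order rests on 0.343 FPKM in osteoblasts replicate 1 against 0.458 FPKM in bone replicate 2. Both values are not far above the floor of 0.133 to 0.221 FPKM for a 1 kb transcript. *Col3a1* measured 555 FPKM in osteoblasts replicate 1 against 1394 and 852 FPKM in bone replicates 1 and 2, while osteoblasts replicates 2 and 3 had 211 and 145 FPKM against 284 FPKM in bone replicate 3. The order held under 3 other scales for *Col3a1* and *Col14a1* but not for *Col7a1*, which lost it after scaling to named genes or to the 75th percentile. *Col10a1* and *Col12a1* had it only after either of these scalings, and *Col6a1* only after scaling to the 75th percentile. With 1 library alone under a label on each side, no test was made.

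The genes that modify, fold, cut and crosslink collagen were described from a list of 31, of which 28 had a named feature and 27 a mean of at least 1 FPKM. Of these 27, limma called 0 higher and 0 lower between the labels, and 24 had a log2 fold change below 0, with a median of -0.58, against 37.4% below 0 and a median of 0.12 over all genes. In 19 the 3 highest values were in the libraries with little *Hbb-bt* (16.9% of all genes) and in 2 in those with much (38.4%). *Sparc*, the collagen-binding protein osteonectin, was the most abundant, at 989 to 1680.1 FPKM. *Serpinh1*, the chaperone of procollagen, measured 421, 217 and 191 FPKM in the bone libraries and 314, 77.5 and 63.0 FPKM in the osteoblast libraries. *Lox*, which starts the crosslinking of fibrils, measured 503, 304 and 8.13 FPKM in the bone libraries and 287, 7.07 and 12.2 FPKM in the osteoblast libraries. Its split followed that of *Col8a1*, while the FPKM of *Col1a1* had no such split. After scaling to named genes or to the 75th percentile, *Col1a1* also had its 3 highest values where *Hbb-bt* was low. *Ppib*, the isomerase cyclophilin B, lay between 103.5 and 226 FPKM with no such split.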

How the data were processed

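RNA-seq was carried out on 3 libraries labelled bone and 3 labelled osteoblasts. Paired reads of 75 bp were mapped by the authors to the GRCm38 genome, and the submitters' processing notes name HISAT2 2.0.5, SAMtools 1.7 and StringTie 1.3.3. Strand use in counting and the annotation release are not given in the sources used here. The authors deposited, per library and feature, the coverage (mean reads per base, a signal), FPKM scaled to all aligned fragments of the library, and TPM, the same values rescaled. The files hold no read counts. Features of one name were summed.

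Tests used log2(FPKM + 1) in limma 3.58.1 (R 4.3.3, empirical Bayes with a mean trend) over the 12112 named genes averaging 1 FPKM or more, with Benjamini-Hochberg adjustment at 0.05. Sums and ratios were compared by exact permutation tests. limma was tested on simulated data. Python 3.11.15, pandas 2.3.3, numpy 2.4.6, scipy 1.17.1 and matplotlib 3.10.9 were used. Promoters are those of RefSeq on GRCm38.p6.

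The members, the gene lists and the threshold on *Hbb-bt* were chosen with earlier results of these data known. Members that reached 1 FPKM in a library could be named, with values per library for all fibrillar genes and the 4 highest by mean of each other class, and members below 1 FPKM throughout were named with an upper value alone. Values per library are also given for *Col9a1* and *Col7a1*, which lie outside this rule. Other named genes are the 4 most abundant processing genes and markers. *Plod3*, *Colgalt1* and *Bmp1* had no named feature and were not analysed here, nor was *Col20a1*.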

Additional observations from a re-analysis of the deposited data

Results flagged for a closer look

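Unnamed features of the tables, which enter none of the comparisons above, lie where RefSeq on GRCm38.p6 places 4 further collagen genes, and each had FPKM above the value that 3 read pairs give on a transcript of 1 kb. These features were looked up after the members' values had been seen. The feature on chromosome 15 from 97975602 to 98004695 spans *Col2a1*, the type II collagen of cartilage, and the lncRNA *Gm46536*. It measured 29.5, 5.95 and 510.2 FPKM in the bone libraries and 5.23, 347 and 251 FPKM in the osteoblast libraries, so that its 3 highest values are in the libraries with more than 1000 FPKM of *Hbb-bt*. The feature on chromosome 17 from 34038862 to 34069843 spans *Col11a2*, a chain of type XI collagen, and measured 50.3, 31.5 and 271 FPKM in the bone libraries and 53.9, 194 and 166 FPKM in the osteoblast libraries. The feature on chromosome 10 from 61838028 to 61979145, over the transmembrane collagen gene *Col13a1* and 4 noncoding genes, was highest in bone replicate 3 at 13.2 FPKM and lowest in bone replicate 1 at 0.946 FPKM. The feature on chromosome 4 from 130047280 to 130099283, over the FACIT gene *Col16a1* and 2 lncRNAs, was highest in bone replicate 1 at 37.0 FPKM and lowest in osteoblasts replicate 3 at 17.7 FPKM.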

How the results depend on the processing

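The count of members called was 0 under each of 10 alternatives to pseudocount, filter, unit, scaling, trend and replicate block, and ranged from 0 to 4 when libraries were left out in turn, the 4 calls coming without osteoblasts replicate 1. A replicate block gave 0 calls among the members and, over all genes, 46 higher and 3 lower, and the median log2 fold change of the members stayed at -0.33. The deviations of same-numbered libraries from their label means correlated at 0.84, -0.75 and 0.83 across 12112 genes, so the numbers are not shown to pair the libraries, and bone replicate 2 correlated best with osteoblasts replicate 1. Taken by number, the collagen sum and those of all classes but cartilage were lower in osteoblasts at 3 of 3 numbers (exact sign-flip permutation p = 0.25, the smallest that 3 pairs allow), and the cartilage sum at 2 of 3. The median over the members ranged from -0.67 to 0.0233 when libraries were left out and was -0.0054 over 39 members without a filter. Scaling to the sum over named genes moved the median of all genes from 0.12 to -0.03 and that of the members from -0.33 to -0.49. Called genes numbered 262 higher and 38 lower without osteoblasts replicate 1, and 66 higher and 11 lower without bone replicate 3, against 0. The ratio of *Col4a1* to *Col4a2*, with a difference of 0.02 on the log2 scale, came to -0.0092 from coverage and to -0.17 to 0.12 when libraries were left out, and that of *Col6a1* to *Col6a2*, at -0.07, to -0.15 to 0.0259. The log2 fold changes of *Col1a1* (-0.40 to 0.17), *Col1a2* (-0.41 to 0.0664) and *Col10a1* (-0.43 to 2.39) also changed sign when libraries were left out. The other sums, ratios and named fold changes kept their direction. The cause of these changes was not tested. Fold changes on log2(FPKM + 1) understate the change of low genes, and intervals for single FPKM cannot be given without counts.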

Other observations

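Other marker lists gave the surroundings of the collagen values. Matched erythroid markers (4 genes) summed to 3.48 to 7.29 FPKM in the libraries with little *Hbb-bt* and to 35727 to 50254 FPKM in the other 3, and 7 neutrophil markers to 0.430 to 5.51 and 14246 to 17226 FPKM. Markers of macrophages (3 genes) ran the other way, with 392 to 752 FPKM in the first 3 libraries and 118 to 138 FPKM in the others. Markers of osteoclasts (4 genes) summed to 47.5 to 314 and 703 to 799 FPKM. Only 2 of the 4 had their 3 highest values in the latter libraries, against 38.4% of all genes. Markers of osteoblasts (5 genes) summed to 1489.7 to 1796 and 1822 to 2128 FPKM, of osteocytes (6 genes) to 59.8 to 139 and 50.5 to 56.3 FPKM, and of tendon (4 genes) to 9.10 to 16.4 and 10.4 to 22.6 FPKM. Of the tendon markers, 2 had their 3 highest values where *Hbb-bt* was low (16.9% of all genes) and 0 where it was high (38.4%).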
